A study of Capitella teleta with 12 samples.

Results

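Of the 32415 gene models counted in single cleavage stage embryos of the annelid *Capitella teleta*, 4 encode secreted ligands of the Activin/Nodal branch for which counts were found. They were taken by protein identifier, the number in the locus tag of the annotation: 165201's gene is *activin/inhibin/myostatin-like 4*, 193459's is *activin/inhibin/myostatin-like 5*, 223591's is *activin/inhibin/myostatin-like 1* and 110325's is *nodal*. The labels of the 12 embryos name no treatment or genotype, each embryo was sequenced on its own, and there were 4 embryos of 8 cells, 3 of 16 cells and 5 of 32 cells. Adults came from a laboratory colony, and which embryos shared a brood is not given in the sources used here. The comparison of the stages asks which of these ligands were present, and whether their levels changed, around the time when micromere 2d acts as an organizer of the dorsal-ventral axis.

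Ligands of this branch, such as Activin and Nodal, are secreted as dimers and bring together type II and type I serine/threonine kinase receptors at the cell surface. The type I receptor then phosphorylates Smad2/3, which joins Smad4 and enters the nucleus to regulate target genes. In vertebrate embryos Nodal is known for inducing mesendoderm and for left-right patterning, Activin for its dose-dependent action on early tissue and its role in reproductive hormone control, and Myostatin for restraining muscle growth. Follistatin binds Activin outside the cell, and Smad6/7 acts against receptor signaling within it. In annelids and other spiralians a single quadrant supplies the organizing cell during early cleavage.

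CEL-Seq counts a tag at the 3′ end of each transcript, with a molecular identifier, so that a level depends on the number of transcripts and not on their length. Levels are given as CPM, the count of a gene times 1000000 over the total of the embryo, and are therefore shares of the mRNA counted. Amounts per embryo were not measured here, and in a whole embryo fewer cells expressing a gene cannot be told apart from less RNA per cell. Totals ranged from 236321 to 491733 per embryo, so that 1 count stood for 2.03 to 4.23 CPM. Where a ligand had no count in a stage, levels of up to 2.18 CPM for the 8-cell, 2.44 CPM for the 16-cell and 1.91 CPM for the 32-cell embryos are allowed, which 3 counts per stage would give. These limits and the intervals below cover counting error only, and they hold where a gene model reaches the 3′ end of its transcript.

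One ligand supplied nearly all counts of the group. *activin/inhibin/myostatin-like 4* had 562 of the 597 counts of the 4 ligands, a share of 94.1% (exact Clopper-Pearson 95% interval 91.9% to 95.9%). *activin/inhibin/myostatin-like 5* had 27 counts, *nodal* 5 and *activin/inhibin/myostatin-like 1* 3. The share of *activin/inhibin/myostatin-like 4* was 93.1% ± 3.82 (SD, n = 4) at the 8-cell stage, 93.3% ± 3.46 (SD, n = 3) at the 16-cell stage and 94.5% ± 5.57 (SD, n = 5) at the 32-cell stage. The difference between the stages lay within the spread between embryos (exact permutation test over 27720 assignments, p = 0.887). Summed over the 4 ligands, the level was 103.7 ± 26.6 CPM, 172.9 ± 23.5 CPM and 151.9 ± 24.5 CPM (SD, n = 4, 3 and 5).

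The number of ligands with a count differed between embryos. Each of the 4 embryos at the 8-cell stage held counts of *activin/inhibin/myostatin-like 5* beside *activin/inhibin/myostatin-like 4*. At the 16-cell stage this pair was found in all 3 embryos, and replicate 1 added *activin/inhibin/myostatin-like 1*. At the 32-cell stage replicate 5 held all 4 ligands, although its total was the smallest of the 12 embryos. Of the other 32-cell embryos, replicate 2 held 3 ligands and replicates 1, 3 and 4 held 2 each.

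**Figure D1:**
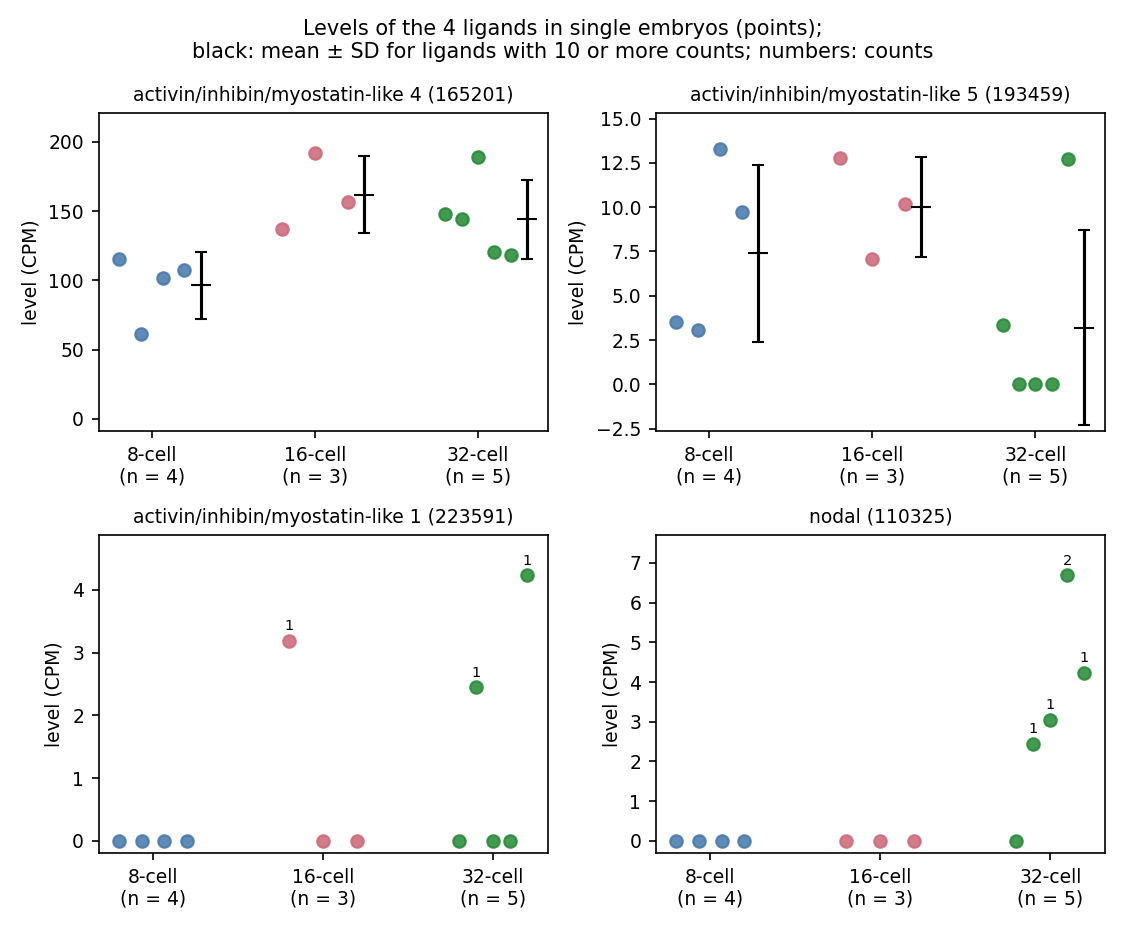
Level of each of the 4 ligands (vertical axis, CPM) in the 4 embryos of 8 cells, 3 of 16 cells and 5 of 32 cells. Points are embryos. Black marks give the mean and SD of a stage for the ligands with 10 or more counts. The small numbers in the lower panels are the counts behind a point. For *activin/inhibin/myostatin-like 4* every embryo of the later stages lay above the 8-cell embryos, a separation whose share among all genes was not computed.

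*activin/inhibin/myostatin-like 4* was already present at the 8-cell stage and was higher in the 16- and 32-cell embryos. Its gene model spans 3418 bases, at positions 383676 to 387093 of a scaffold that the annotation of the same assembly does not name. At the 8-cell stage replicates 1 to 4 had 33, 20, 46 and 33 counts, which correspond to 115, 60.9, 102 and 107 CPM. Replicate 2 was the lowest of all 12 embryos. At the 16-cell stage the 3 embryos had 43, 81 and 77 counts, or 137, 192 and 157 CPM. All of them lay above the 8-cell embryos. At the 32-cell stage replicates 1 to 5 had 44, 59, 62, 36 and 28 counts, or 148, 144, 189, 120 and 118 CPM. The lowest of these, 118 CPM, stood just above the highest 8-cell embryo at 115 CPM, and the 16- and 32-cell embryos overlapped. Such separation was not particular to this ligand. *Activin Receptor 2*, a receptor gene of the branch, was separated between 8 and 16 cells but not between 8 and 32. *BMP2/4*, a ligand of the other branch, was separated between 8 and 32 cells but not between 8 and 16. The share of all genes separated in this way was not computed.

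The mean level of this ligand was 96.3 ± 24.3 CPM in 8-cell, 162 ± 27.7 CPM in 16-cell and 144 ± 28.6 CPM in 32-cell embryos (SD, n = 4, 3 and 5). Counting error alone would give SDs of 17.0, 20.4 and 21.9 CPM at these depths, so the spread between embryos was larger than counting error at each stage but of the same order. Among the gene models detected at a stage, the ligand stood at the 84.9, 90.7 and 91.2 percentile. It was thus among the more abundant transcripts at every stage.

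Between 8 and 16 cells *activin/inhibin/myostatin-like 4* had a log2 fold change of 0.73 (standard error 0.21), to a 1.65-fold higher level, and the adjusted p was 0.0319 (edgeR, quasi-likelihood F test). From the 8- to the 32-cell stage it was 0.63 (standard error 0.20, adjusted p = 0.0259), a 1.55-fold higher level. Between the 16- and 32-cell stages it was -0.10 (standard error 0.20, adjusted p = 0.929), a difference smaller than its error. Over the 3 stages together the adjusted p was 0.0296. Such calls were common in these embryos. Of the 11854 genes tested, 17.2% had an adjusted p below 0.05 over the 3 stages. Between 8 and 16 cells 5.52% were called higher and 3.91% lower. Between 8 and 32 cells 11.0% were called higher and 8.98% lower. From the 16- to the 32-cell stage 1.74% were called higher and 0.472% lower, and neither of the 2 ligands with enough counts to be tested was among them. It was also 0 of 2 in DESeq2, beside 211 of the 11854 genes, and at an unadjusted p of 0.05 in edgeR, beside 1230.

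The calls between stages for *activin/inhibin/myostatin-like 4* were lost when some single embryos were left out. The call for the step to the 16-cell stage was lost without 8-cell replicate 2 (log2 fold change 0.56, adjusted p = 0.0997), 8-cell replicate 3 (0.72, 0.0771), 16-cell replicate 2 (0.58, 0.165) or 16-cell replicate 3 (0.75, 0.0733). The change to the 32-cell stage was lost without 8-cell replicate 2 (0.46, adjusted p = 0.106), 8-cell replicate 3 (0.62, 0.0682) or 32-cell replicate 3 (0.51, 0.0837). The step to the 16-cell stage also missed the threshold in DESeq2's Wald test (adjusted p = 0.0572). Across the 3 stages DESeq2's likelihood ratio test called this ligand (adjusted p = 0.0448). With each embryo left out in turn, the estimates stayed positive for both changes.

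**Figure D2:**
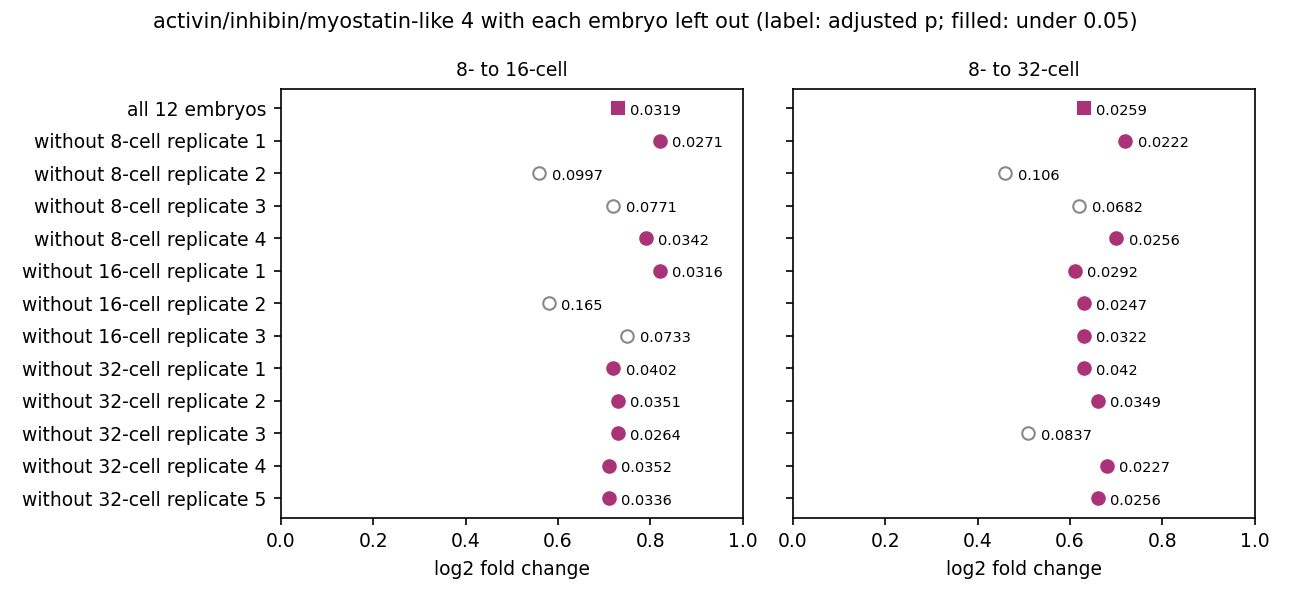
Log2 fold change of *activin/inhibin/myostatin-like 4* (horizontal axis) from the 8- to the 16-cell stage (left) and to the 32-cell stage (right), with all 12 embryos (squares) and with each embryo left out in turn (circles). Labels give the adjusted p of edgeR's quasi-likelihood F test and filled symbols are below 0.05; the estimates ran from 0.56 to 0.82 on the left and from 0.46 to 0.72 on the right.

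*activin/inhibin/myostatin-like 5* was found at low levels, in every 8- and 16-cell embryo and in 2 of 5 embryos at the 32-cell stage. Its gene model lies at positions 505682 to 507817 of its scaffold (2136 bases). The 8-cell embryos had 1, 1, 6 and 3 counts, or 3.49, 3.04, 13.3 and 9.74 CPM. The 16-cell embryos had 4, 3 and 5 counts, or 12.8, 7.10 and 10.2 CPM, within the range of the 8-cell embryos. At the 32-cell stage replicate 1 had 1 count (3.36 CPM), replicates 2, 3 and 4 had 0, and replicate 5 had 3 counts (12.7 CPM). Replicate 5 alone reached the levels of the 16-cell embryos.

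Over all embryos of a stage, these counts correspond to 8.01 CPM (exact Poisson 95% interval 4.00 to 14.3) at the 8-cell stage, 9.78 CPM (5.05 to 17.1) at the 16-cell stage and 2.55 CPM (0.694 to 6.53) at the 32-cell stage. The last interval overlapped both others. Between 8 and 32 cells the estimate of edgeR was -1.41 on the log2 scale (standard error 0.87), with an adjusted p of 0.278, and over the 3 stages the adjusted p was 0.330. Without 32-cell replicate 5 this change was -2.87 and just past the threshold (adjusted p = 0.0498), so leaving out this 1 embryo made the call. Between 8 and 16 cells the estimate was 0.30 (standard error 0.76), and 2 standard errors on either side reach from -1.23 to 1.83, which includes a rise as well as a fall.

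The levels of these 2 ligands were far apart in each embryo. The difference in log2(CPM + 1) of *activin/inhibin/myostatin-like 4* over *activin/inhibin/myostatin-like 5* was positive in 12 of 12 embryos, with a mean of 4.70 ± 1.67 (SD, n = 12; exact sign-flip permutation test, two-sided p = 0.000488, the smallest it can give). It lay between 2.85 and 5.09 in the 9 embryos with counts of both, while the 6.92 to 7.57 of the 3 embryos without a count of the rarer ligand were set by the pseudocount of 1. With a pseudocount of 0.1 the mean was 5.67 and with one of 10 it was 3.15, so the size of the difference depended on this choice and its sign did not. Their counts stood in a ratio of 12.0 in the 8-cell embryos (exact 95% interval 6.49 to 24.6), 16.8 in the 16-cell embryos (9.38 to 33.0) and 57.2 in the 32-cell embryos (22.1 to 212). The last ratio rested on 4 counts of the rarer ligand, 3 of them in 32-cell replicate 5, and without this embryo it was 201 on 1 count (35.7 to 7978), an alternative chosen after the data were seen.

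*nodal* was found at the 32-cell stage alone. Its gene model is the shortest of the 4, with 339 bases at positions 16113 to 16451 of its scaffold. None of the 7 embryos at the 8- and 16-cell stages had a count. At the 32-cell stage replicate 1 had 0 counts, replicates 2, 3 and 5 had 1 count each and replicate 4 had 2, which correspond to 0, 2.45, 3.05, 6.69 and 4.23 CPM in the order of the replicates. Over the stage this gave 3.19 CPM (exact Poisson 95% interval 1.03 to 7.43). This estimate was 1.46-fold the limit that 3 counts give at the 8-cell stage and 1.30-fold that at the 16-cell stage. The interval reaches below both limits, so these ratios are not lower bounds on a rise. An exact permutation test of the CPM over the 3 stages gave p = 0.0232, unadjusted, as 1 of 4 ligands on which this test was run (0.0224, 0.193 and 0.561 for *activin/inhibin/myostatin-like 4*, *5* and *1*). Between pairs of stages the exact permutation p of *nodal* was 0.0476 for 8 and 32 cells and 0.107 for 16 and 32 cells. Leaving out 32-cell replicate 2, 3, 4 or 5 raised the permutation p over the 3 stages from 0.0232 to 0.0545 in each case. Over the 3 stages edgeR without a filter on low counts gave an adjusted p of 0.137.

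*activin/inhibin/myostatin-like 1* was at the limit of detection. Its gene model spans 2690 bases, at positions 313201 to 315890 of its scaffold. It had 1 count in 16-cell replicate 1 (3.19 CPM), 1 in 32-cell replicate 2 (2.45 CPM) and 1 in 32-cell replicate 5 (4.23 CPM), and 0 in the other 9 embryos. Over a stage the level was 0.815 CPM at the 16-cell stage (exact Poisson 95% interval 0.0206 to 4.54) and 1.27 CPM at the 32-cell stage (0.154 to 4.60), and the 8-cell embryos could hold up to 2.18 CPM. At this depth a difference between the stages could not be detected (exact permutation test over the 3 stages, p = 0.561).

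In the order of levels *activin/inhibin/myostatin-like 4* stood first at every stage. *activin/inhibin/myostatin-like 5* came second in 8-cell embryos, above the limits of the ligands without counts, with a lower bound of 4.00 CPM against 2.18 CPM. In 16-cell embryos its lower bound of 5.05 CPM was above the 4.54 CPM that the single count of *activin/inhibin/myostatin-like 1* allowed. In 32-cell embryos 5 counts of *nodal* stood beside 4 of *activin/inhibin/myostatin-like 5* and 2 of *activin/inhibin/myostatin-like 1*, with intervals that overlapped, so their order there is not resolved. Of the remaining ligands of the branch, *activin/inhibin/myostatin-like 2* and *myostatin* had 0 counts in the 12 embryos. The gene *activin/inhibin/myostatin-like 3* of the same family is not analysed here.

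Of the 13 components of the study's list taken here as the Activin/Nodal branch, 12 were in the count table and 10 had a count. Enough counts to be tested were found for 7, 2 of them ligands. For *follistatin*, *BAMBI* and *NOMO*, which are among the 13, the study's text names no branch. From the 8- to the 16-cell stage 2 of the 7 passed the threshold, both higher, *activin/inhibin/myostatin-like 4* and *Activin Receptor 2*, the type II receptor of the branch, beside 5.52% higher and 3.91% lower among all genes tested. In DESeq2 1 of the 7, the receptor, was called for this step, beside 833 of the 11854 genes tested. The median log2 fold change of the 7 genes was 0.51, against 0.08 for all genes tested. From the 16- to the 32-cell stage 0 of 7 passed in edgeR at an adjusted p of 0.05. Among all genes tested 1.74% were called higher and 0.472% lower. DESeq2 also called 0 of 7, beside 211 of the 11854 genes. At an unadjusted p of 0.05 in edgeR it was 0 of 7, beside 1230 of 11854. These shares are too small for 0 of 7 to be read as a result about the branch. The median was -0.09 against 0.00. Between 8 and 32 cells the ligand was the 1 component of 7 called, as higher, beside 11.0% higher and 8.98% lower among all genes tested. With 1 call among 7 genes, an excess over these shares cannot be judged. The median log2 fold change was 0.63 against 0.09 for all genes.

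*Activin Receptor 2* (CAPTEDRAFT_94926) had levels of 150 ± 37.7 CPM, 260 ± 38.1 CPM and 196 ± 31.7 CPM (SD, n = 4, 3 and 5). Between 8 and 16 cells its log2 fold change was 0.75 (standard error 0.19), with an adjusted p of 0.0116, beside 0.73 for *activin/inhibin/myostatin-like 4* over the same embryos. *TGF-β Receptor 1* (CAPTEDRAFT_227433), the type I receptor, had -0.45 (standard error 0.30, adjusted p = 0.388) over this step. *Smad2/3* (CAPTEDRAFT_167863), which carries the signal to the nucleus, had 0.51 (standard error 0.40), with an adjusted p of 0.488. The extracellular inhibitor *follistatin* (CAPTEDRAFT_186626) had 8 counts in 6 embryos and was not tested. *BAMBI* (CAPTEDRAFT_220461), in vertebrates a pseudoreceptor that blocks signaling, had 4, 3 and 16 counts at the 3 stages, and *NOMO* (CAPTEDRAFT_179513), a Nodal modulator in vertebrates, had 3, 9 and 12. Neither was called in any of the stage comparisons.

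**Figure D3:**
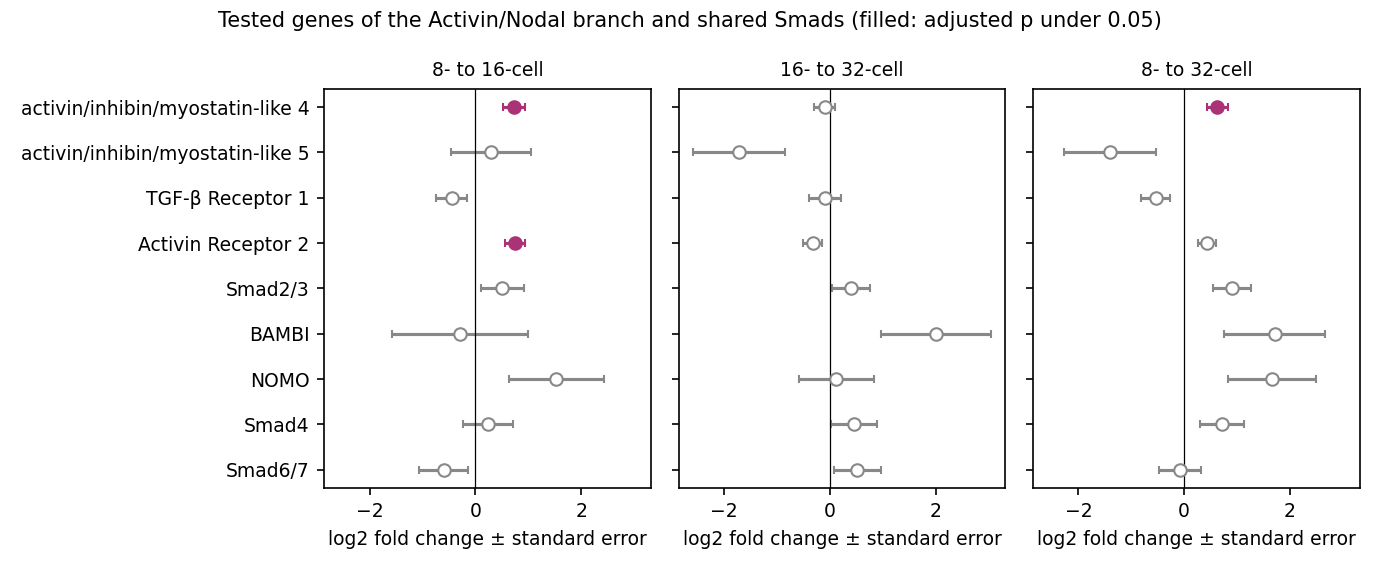
Log2 fold change with its standard error (horizontal axis) for the 7 tested Activin/Nodal components and the shared *Smad4* and *Smad6/7*, for the 3 pairs of stages. Filled symbols have an adjusted p below 0.05 in edgeR's quasi-likelihood F test; 2 genes were filled from the 8- to the 16-cell stage, 0 for the later step and 1 between 8 and 32 cells.

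The rise of *activin/inhibin/myostatin-like 4* was then set against other genes of the same embryos, which removes the scaling of the library. *BMP2/4* (CAPTEDRAFT_173895), a ligand of the other branch, had similar levels, and *activin/inhibin/myostatin-like 4* minus *BMP2/4* was -0.12 ± 0.65, 0.30 ± 0.59 and -0.01 ± 0.36 in log2(CPM + 1) at the 8-, 16- and 32-cell stages (SD, n = 4, 3 and 5). The ligand of the Activin/Nodal branch exceeded *BMP2/4* in 5 of 12 embryos. Between 8 and 16 cells this difference moved by 0.41 (standard error 0.47), and the stages did not differ beyond the spread between embryos (exact permutation test over 27720 assignments, p = 0.596). Although *BMP2/4* itself was not called between 8 and 16 cells (log2 fold change 0.33, adjusted p = 0.366), a difference between the changes of the 2 ligands was thus not shown. From the 8- to the 32-cell stage *BMP2/4* had a log2 fold change of 0.51 with an adjusted p of 0.0529.

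With *BMP5/8* (CAPTEDRAFT_172350) as the comparator, *activin/inhibin/myostatin-like 4* was the higher gene in 12 of 12 embryos, by 1.16 ± 0.27, 1.97 ± 0.67 and 1.39 ± 0.53 at the 3 stages (SD, n = 4, 3 and 5). The change to the 16-cell stage was 0.81 (standard error 0.41), and the exact permutation test across the stages gave p = 0.155. Against *Activin Receptor 2*, a comparison chosen after its values were seen, the ligand was lower in 11 of 12 embryos, with a mean difference of -0.57 ± 0.49 (SD, n = 12). This difference was -0.64 ± 0.73, -0.68 ± 0.26 and -0.45 ± 0.42 at the stages (SD, n = 4, 3 and 5). It changed by -0.04 (standard error 0.40) from the 8- to the 16-cell stage (exact permutation test across the stages, p = 0.789).

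**Figure D4:**
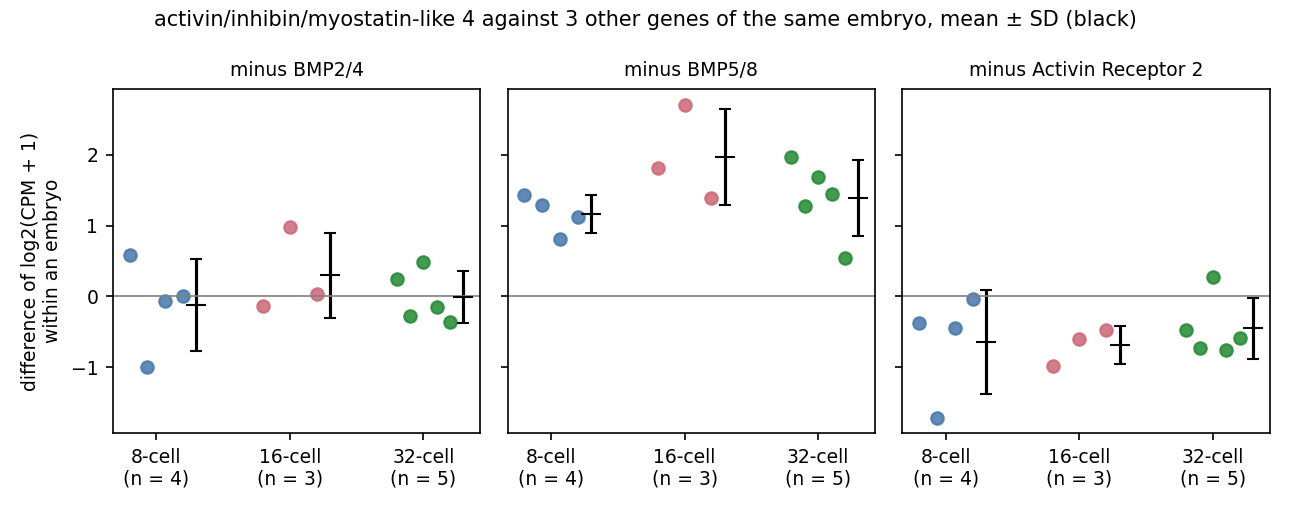
Difference in log2(CPM + 1) between *activin/inhibin/myostatin-like 4* and *BMP2/4*, *BMP5/8* or *Activin Receptor 2* (vertical axis) within single embryos of each stage, with the mean and SD in black. Values lie around 0 for *BMP2/4*, above 0 in all 12 embryos for *BMP5/8*, and below 0 in 11 of 12 embryos for *Activin Receptor 2*.

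Among 7648 tested genes with a mean of at least 10 CPM, those whose log2(CPM + 1) followed *activin/inhibin/myostatin-like 4* most closely over the 12 embryos were the gene models CAPTEDRAFT_215965 (Pearson's r = 0.919, Spearman's rho = 0.888), CAPTEDRAFT_227926 (0.915, 0.930) and CAPTEDRAFT_220652 (0.914, 0.825), which carry no gene name in the annotation. The closest, CAPTEDRAFT_215965, had 106 ± 16.3 CPM, 146 ± 27.4 CPM and 140 ± 14.7 CPM at the 3 stages (SD, n = 4, 3 and 5). CAPTEDRAFT_227926 and CAPTEDRAFT_220652 had only 65 and 44 counts over the 12 embryos. At the 8-cell stage their means were 3.11 and 2.24 CPM, near the level of 1 count per embryo. After the mean of each stage was removed, r was 0.831, 0.800 and 0.820 for these 3 genes. Of the branch, *Smad2/3* came nearest, at rank 16 of the 7648 genes (r = 0.870, rho = 0.755, and 0.863 with stage means removed). *Activin Receptor 2*, called over the same step as the ligand, had r = 0.349 and rho = 0.643 with the stages together and -0.524 with stage means removed. The values of an embryo share its library and its total, and as the top of 7648 correlations these are given as a description.

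None of the 7 models found next to a ligand's gene model in the annotation overlapped it. The model listed just before *nodal*, CAPTEDRAFT_89813, had 0 counts. It is not consecutive with *nodal* in the annotation and was left out of the 7. The nearest was CAPTEDRAFT_144257, which starts 408 bases beyond the end of *activin/inhibin/myostatin-like 4* and had 10 counts over the 12 embryos, against 562. On the other side, 4498 bases away, CAPTEDRAFT_216791 had 110 counts, of which 40 came from 16-cell replicate 1 and 42 from 32-cell replicate 4. The models beside *activin/inhibin/myostatin-like 5* had 1 count each, and those beside *activin/inhibin/myostatin-like 1* had 0 and 1. Beyond *nodal*, at a distance of 3311 bases, CAPTEDRAFT_197271 had 86, 66 and 57 counts at the 3 stages, where *nodal* had 0, 0 and 5. Whether tags from a transcript end beyond its model were left uncounted or assigned to a neighbor was not tested.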

How the data were processed

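RNA of single embryos was measured by CEL-Seq, and the labels give each embryo its stage and replicate number. The authors demultiplexed the reads, mapped them with Bowtie2, of unstated version, to the *C. teleta* genome, and derived the deposited counts per gene model from molecular identifiers with an htseq-count script. Levels were computed as CPM over the total of an embryo and matched the deposited CPM within a relative deviation of 4.84e-10. The authors' table of their own likelihood ratio test (means, fold changes and p-values) was not used. Columns of other samples and rows naming no gene each numbered 0. ERCC spike-ins were added by the methods, and the count table has 0 ERCC rows.

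Counts were tested in R 4.3.3 with edgeR 4.0.16 (TMM scaling, at least 10 counts over the 12 embryos, quasi-likelihood F test, all stages in 1 fit, no covariates, Benjamini-Hochberg adjustment over all genes tested, threshold 0.05). A standard error is the log2 fold change over the square root of F. Ligands with fewer counts, shares and within-embryo differences (pseudocount 1) were tested by exact permutation in Python 3.11.15. The study named DESeq2's likelihood ratio test, run here across the 3 stages as an alternative in DESeq2 1.42.0. Pairs of stages were compared in DESeq2 with its Wald test. The edgeR test was tested on simulated data. Pairs of embryos of a stage differed by more than sampling noise (chi-square per degree of freedom 1.81 to 3.02). This excess cannot show whether they came from separate broods, and each embryo counted as 1 replicate. Embryos of a stage are the replicates. The p-values between stages weigh a difference against the spread between embryos, which edgeR estimated from all stages in 1 fit. The sign-flip test took the 12 embryos of all stages together.

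Alternatives were DESeq2 size factors, library totals, no filter, filterByExpr, a replicate block, 1 random thinning to 236321 counts, pairs of stages alone, each embryo left out, pseudocounts of 0.1 and 10, and other comparator genes. Named genes were the 4 ligands, the components of the study's list taken here as Activin/Nodal with the 2 shared Smads, and 2 BMP ligands. The 3 genes most like *activin/inhibin/myostatin-like 4* (of tested genes with a mean of at least 10 CPM) were named as well. Neighboring gene models were named after their values were seen. The ligands, lists and tests were chosen with earlier results of these data known. Gene model numbers matched the annotation for 98.6% of the models. No marker lists were used, since each sample is a whole embryo.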

Additional observations from a re-analysis of the deposited data

Results flagged for a closer look

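One embryo lay far from the rest in 3 of 16 sets of values, each over the 4 or 5 embryos of a stage. Chance gives about 1 in 20 of such sets, and low counts may differ from that share. At the 32-cell stage replicate 5 stood apart in *activin/inhibin/myostatin-like 5*, at 12.7 CPM on 3 counts against 3.36 CPM in the next embryo and 0 in the rest. The same embryo stood apart in the share of *activin/inhibin/myostatin-like 4* among the counts of the 4 ligands, at 84.8% against 94.7% in the next embryo. It had the smallest total, 236321 counts, and the part of depth in these values was not tested. In 32-cell replicate 3 *activin/inhibin/myostatin-like 4* exceeded *Activin Receptor 2* by 0.28 on the log2(CPM + 1) scale, against -0.47 in the next embryo.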

How the results depend on the processing

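For *activin/inhibin/myostatin-like 4* the adjusted p across the stages was 0.072 after thinning, and lay between 0.0255 and 0.128 with each embryo left out, where it was lost without 8-cell replicates 2 (0.128) and 3 (0.0923) and 16-cell replicate 2 (0.0576). Its step from the 8- to the 16-cell stage was not past the threshold in DESeq2's Wald test (0.72, adjusted p = 0.0572), with the 2 stages alone (0.69, 0.0536) or after thinning (0.66, 0.106). With each embryo left out this step lay between 0.56 and 0.82. The change to the 32-cell stage lay between 0.46 and 0.72. The difference between the 16- and 32-cell stages, not called in any setting, lay between -0.22 and 0.05 and turned positive without 16-cell replicate 2 (0.05). *activin/inhibin/myostatin-like 5* had estimates of -2.87 (adjusted p = 0.0498, without 32-cell replicate 5) to -0.96 between 8 and 32 cells. The permutation p of *nodal* across the stages was 0.0682 after thinning and between 0.00606 and 0.0545 with each embryo left out. The adjusted p of edgeR with no filter was 0.137. Without a filter 425 of 20716 genes tested were called from the 16- to the 32-cell stage, against 262 of 11854, so more genes were tested as well. From the 8- to the 16-cell stage 1118 of 11854 genes were called. With each embryo left out this ran from 740 of 11545 (without 16-cell replicate 2) to 1158 of 11621 (without 32-cell replicate 5). Fits with an embryo left out or after thinning held fewer embryos or counts, and the cause of these changes was not tested. Same-numbered embryos of different stages did not deviate together (10 pairs, correlations of -0.075 to 0.061, against -0.133 to 0.143 in 37 other pairs). The numbers thus gave no sign of a pairing, though one hidden by counting error could go unseen. With the replicate block the adjusted p of *activin/inhibin/myostatin-like 4* was 0.0302 across the stages, and no call of a ligand changed. The shares, and the mean within-embryo differences, kept their side of the threshold under every alternative run.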
